A study of Mus musculus with 16 samples.

Results

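The genes described here were those of the collagen chains and of the enzymes that hydroxylate or cross-link them, taken by name from the table of 16793 genes. 50 genes matched. 39 of them encode collagen chains, with 10 fibrillar, 6 basement membrane and 23 other chains, and 11 encode lysyl oxidases (Lox, Loxl1 to Loxl4), lysyl hydroxylases (Plod1 to Plod3) or prolyl 4-hydroxylase alpha subunits (P4ha1 to P4ha3). 16 RNA libraries from mouse liver were sequenced, 4 in each of 4 groups, all labelled wild type and all from animals with induced primary liver cancer. OVX livers came from female mice whose ovaries had been removed, and Sham livers from female mice that had sham surgery. LCAT livers came from mice that overexpressed LCAT, the secreted enzyme that esterifies the cholesterol of lipoproteins, in the liver, and Vec livers from mice with the empty vector. The sources used here do not state the age or strain of the mice, the way cancer was induced, the vector and its promoter, the sex of the LCAT and Vec mice, or whether tumour or surrounding tissue was sampled.

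Collagens are built from triple helices of chains. Types I, III and V assemble into the fibrils of scar tissue, type IV chains form the sheet of basement membranes, and the others decorate fibrils, make beaded filaments or short networks, or span the cell membrane. Prolyl 4-hydroxylases stabilise the helix in the endoplasmic reticulum, lysyl hydroxylases prepare lysines for cross-linking, and lysyl oxidases start the cross-links outside the cell. In injured liver, activated stellate cells and portal fibroblasts are the main known source of fibrillar collagen, whereas hepatocytes are known to make collagen XVIII.

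For members whose levels moved in opposite ways in these livers, the bases before their transcription start sites are shown, from RefSeq on build GRCm38.p6, 5′ to 3′ on the gene's strand. 37 of the 50 members matched the RefSeq table. Capitals mark the letters TATAAA of the TATA box, CCAAT of the box of that name or GGGCGG of the GC box, each searched on both strands. Col3a1 (chr1:45311288-45311537, plus strand), Col6a3 (chr1:90843972-90844221, minus strand) and Col8a1 (chr16:57754738-57754987, minus strand) were higher in OVX than in Sham livers, and Col13a1 (chr10:61979109-61979358, minus strand) was lower. The Col4a4 line holds only the 71 bases between the starts of Col4a3 and Col4a4, which face away from each other (chr1:82586850-82586920, minus strand).

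Col3a1: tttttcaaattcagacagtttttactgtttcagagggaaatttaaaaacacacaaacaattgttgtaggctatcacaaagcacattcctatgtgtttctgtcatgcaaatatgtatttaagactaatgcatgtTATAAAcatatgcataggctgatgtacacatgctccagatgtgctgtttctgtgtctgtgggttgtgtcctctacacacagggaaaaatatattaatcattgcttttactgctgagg
Col4a4: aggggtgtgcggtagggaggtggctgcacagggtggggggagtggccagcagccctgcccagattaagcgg
Col6a3: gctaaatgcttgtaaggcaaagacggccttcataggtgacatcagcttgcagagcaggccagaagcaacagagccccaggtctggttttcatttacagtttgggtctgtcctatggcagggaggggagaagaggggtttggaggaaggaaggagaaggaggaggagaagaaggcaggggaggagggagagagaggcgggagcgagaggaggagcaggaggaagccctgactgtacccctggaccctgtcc
Col8a1: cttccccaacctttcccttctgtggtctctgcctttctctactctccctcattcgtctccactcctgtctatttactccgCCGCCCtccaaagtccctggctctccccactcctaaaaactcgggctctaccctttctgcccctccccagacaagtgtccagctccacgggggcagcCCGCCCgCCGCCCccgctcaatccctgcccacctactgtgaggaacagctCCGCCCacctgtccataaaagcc
Col13a1: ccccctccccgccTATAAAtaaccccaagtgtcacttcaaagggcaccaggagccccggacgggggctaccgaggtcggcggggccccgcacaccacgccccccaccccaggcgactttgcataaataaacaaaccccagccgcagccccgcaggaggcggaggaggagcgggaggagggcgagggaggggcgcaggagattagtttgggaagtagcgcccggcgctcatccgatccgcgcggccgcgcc

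The Col3a1 window held a TATA box beginning 117 bases before the start, and that of Col13a1 one at 237 bases. Col8a1 had 4 GC boxes, all written as CCGCCC on this strand, and the Col6a3 and Col4a4 lines held none of the motifs. Over all 32851 windows of 250 bases in the RefSeq table, 12.4% held the TATA box, 33.8% the CCAAT box and 32.7% the GC box. Among the 39 windows of these 37 members, some of which have more than one, 6 held a TATA box, 12 a CCAAT box and 25 a GC box. These are matches of letters only.

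All values below are read counts divided by the authors' size factor for each library, called normalized read counts. Library totals after undoing that division were 12562943 to 27110501 reads. Lcat was at 5014, 5074, 5106 and 4531 in LCAT livers, against 3348, 2926, 4521 and 2980.1 in Vec livers, so all LCAT libraries lay above all Vec libraries. The gap was narrow, with LCAT library 4 at 4531 and Vec library 3 at 4521. Sham livers, of the other experiment, were at 5578 to 5714, above all LCAT libraries, and OVX livers at 3061 to 3637. In OVX, Sham and LCAT livers, libraries 2 and 3 tended to lie between libraries 1 and 4. Among genes that differed at least 2-fold between libraries 1 and 4, Sham library 2 lay between them for 89.4% and LCAT library 2 for 90.7% of genes, with 82.8% for OVX library 2 and 62.5% for Vec library 2. Of the members at a mean of at least 10 in a group, both middle libraries lay between in 26 of 35 in OVX, 12 of 34 in Sham, 21 of 37 in LCAT and 4 of 35 in Vec livers. Choosing genes by a 2-fold gap between libraries 1 and 4 itself favours values in between. None of these shares was set beside a chance level. Whether the 4 libraries of a group are independent animals was not tested, and no label says that they are, so the p-values measure only the spread between these libraries. In bulk tissue, more cells of a type and more RNA per cell cannot be told apart.

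Ovariectomy was accompanied by higher levels of most of the tested collagen chains and of most of the lysyl oxidases. Of the 35 members with a mean of at least 10, 25 rose and 5 fell in OVX against Sham livers at an adjusted p below 0.05 (limma on log2 of the normalized count plus 1, Benjamini-Hochberg over all genes tested). Over all genes tested, 19.0% rose and 20.6% fell. The median log2 fold change of the members was 0.98, beside 0.00 over all genes tested. 5 of 8 tested fibrillar chains, 5 of 5 basement membrane chains, 9 of 12 other chains and 6 of 10 enzymes rose. In 23 members every OVX library was above every Sham library and in 5 every one was below, where 18.9% and 20.1% of all genes tested did so. With libraries 1 and 4 of each group alone, limma and edgeR each called 0 members at an adjusted p below 0.05, and 21 members had an unadjusted p below 0.05 with either tool. Both tools also called 0 of all 13056 genes tested there, and 12.93% of these in limma and 12.68% in edgeR had an unadjusted p below 0.05. All 30 members called with 4 libraries kept their sign in that fit, and the median was 1.13 in limma. The kept signs are no independent check, since libraries 1 and 4 were part of those calls. Members whose groups do not overlap must keep their sign in any part of the libraries.

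The chains of the major fibrils made the most abundant part of the rise. Col1a1, the major chain of type I collagen (chr11:94936224-94953042 on build mm10, plus strand), had normalized read counts of 1731, 2110.2, 2426 and 3499 in OVX livers, against 737, 781, 733 and 830.4 in Sham livers. Its partner Col1a2 (chr6:4504814-4541544) had 1608, 1910.3, 1967 and 2749 in OVX livers, against 729, 750.4, 729 and 694 in Sham livers. Col3a1, the chain of type III collagen found beside type I in most fibrils (chr1:45311538-45349706), had 2461, 3099, 3387 and 5072 in OVX livers, against 945, 1062, 1031 and 971 in Sham livers. The groups did not overlap for any of the 3 chains, the Sham libraries lay close together, and OVX library 4 was the highest each time. The rise was 1.62 (SE 0.19) on the log2 scale for Col1a1, with adjusted p = 0.000501 in limma. For Col1a2 it was 1.48 (SE 0.15) with limma adjusted p = 0.000246, and for Col3a1 1.76 (SE 0.19) with limma adjusted p = 0.000375. The type V chains, which co-assemble with type I and set the width of fibrils, rose as well, Col5a2 by 1.23 (SE 0.09) and Col5a1 by 1.13 (SE 0.18).

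Other fibrillar chains did otherwise. Col27a1, a chain of thin fibrils best known in cartilage, had 243, 277, 241 and 273 in OVX livers, against 602, 516, 466 and 322 in Sham livers. It was lower in all OVX libraries, with a limma log2 fold change of -0.85 (SE 0.18) and adjusted p = 0.00707. The third type V chain Col5a3 had 121, 253, 279.6 and 577 in OVX livers, against 501, 531, 452 and 476 in Sham livers. OVX library 4 lay above all Sham libraries and the other OVX libraries below them, and the difference of -0.88 (SE 0.39) did not pass the test (limma adjusted p = 0.104). Without OVX library 4 it was -1.25 with limma adjusted p = 0.0104, and with one spread for all 16 libraries the adjusted p was 0.0412. Col11a2, a cartilage fibril chain at a mean of 15.2 in OVX livers and 10.3 in Sham livers, did not pass either (adjusted p = 0.18 in limma).

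**Figure D1:**
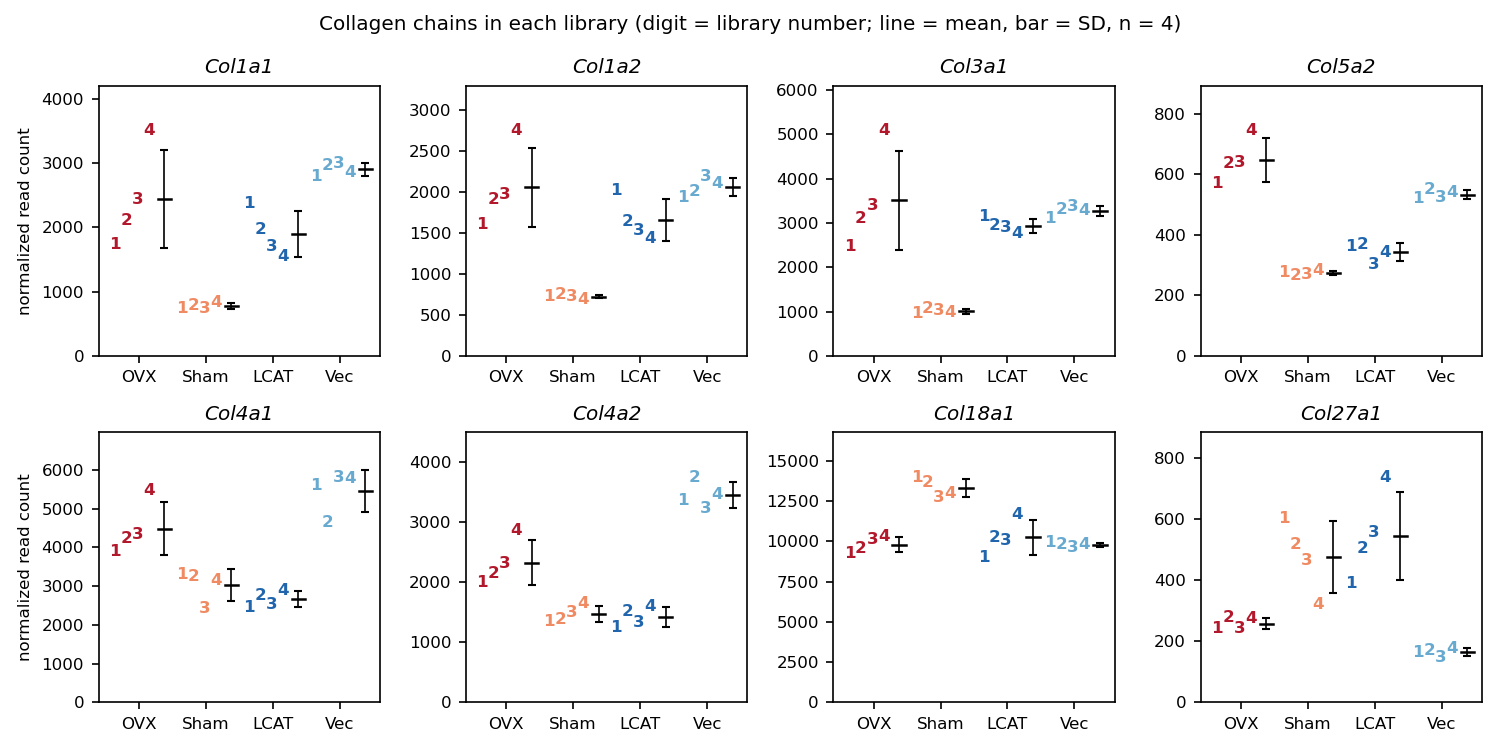
Normalized read counts of 8 collagen chains in each library, with OVX, Sham, LCAT and Vec livers along the horizontal axis; each digit is a library, the line is the mean and the bar the SD of 4 libraries. Col1a1, Col1a2, Col3a1 and Col5a2 are higher in all OVX than in all Sham libraries, Col4a1 and Col4a2 are also lower in all LCAT than in all Vec libraries, and Col27a1 runs the other way in both pairs.

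All tested chains of type IV collagen, the sheet-forming collagen of basement membranes, were higher in OVX livers. Col4a1 (chr8:11198423-11312826) had 3891, 4235, 4342 and 5481 in OVX livers, against 3302, 3257, 2418 and 3156 in Sham livers. Col4a2, its partner in the common type IV molecule, had 1995, 2139.9, 2311 and 2851 in OVX livers, against 1346, 1379, 1496 and 1644 in Sham livers. Neither pair of groups overlapped, although Sham library 3 lay well below the others for Col4a1. The rises were 0.56 (SE 0.14) for Col4a1 (limma adjusted p = 0.0122) and 0.66 (SE 0.12) for Col4a2 (limma adjusted p = 0.00378). Col4a3 and Col4a4, whose products join with that of Col4a5 in the type IV network of the kidney glomerulus, rose more on the log2 scale from far lower levels. Col4a3 had 188, 194, 238 and 314 in OVX livers, against 44.3, 53.7, 71.5 and 129 in Sham livers, a change of 1.72 (SE 0.32). Col4a4 averaged 48.8 ± 12.5 in OVX livers and 15.8 ± 4.68 in Sham livers (SD, n = 4 each), a change of 1.58 (SE 0.26), and Col4a5 147 ± 26.6 in OVX livers and 94.3 ± 11.1 in Sham livers, a change of 0.62 (SE 0.16).

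Among the other collagens, the chains of type VI, which forms beaded filaments around cells, all rose. Col6a3 had 523, 625, 643 and 848 in OVX livers, against 217, 225, 227 and 185 in Sham livers, with no overlap and a limma log2 fold change of 1.60 (SE 0.15). Col6a5, a chain able to take the place of Col6a3, had 47.4, 62.8, 42.2 and 76.7 in OVX livers, against 3.16, 5.88, 6.81 and 0 in Sham livers. It was near the detection limit in Sham livers, so its fitted change of 3.88 (SE 0.62) depends on the pseudocount, and it was 3.23 without Sham library 4, which held no read. Col6a1 and Col6a2, the constant chains of the type VI molecule, rose by 0.60 (SE 0.16) and 1.12 (SE 0.19). Col6a6 had 165, 116, 96.7 and 31.5 in OVX livers, against 28.5, 33.6, 38.3 and 37.4 in Sham livers, and the groups overlapped through OVX library 4. Its limma adjusted p of 0.0443 was past the threshold, but not when any library other than OVX library 4 was left out (0.0553 to 0.11), nor with no trend in limma (0.054). Col6a1 was past it at 0.0194, and was 0.0554 without OVX library 3 and 0.0507 without Sham library 2.

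Col8a1, a chain of the short-chain network collagen VIII of vessel walls, had 129.9, 151, 165 and 199.7 in OVX livers, against 35.8, 36.9, 43.4 and 46.5 in Sham livers. The groups were far apart, with a change of 1.95 (SE 0.17) and limma adjusted p = 0.000128. Col16a1, a fibril-associated chain, rose by 1.44 (SE 0.19), Col15a1, a multiplexin beneath basement membranes, by 0.74 (SE 0.16), and Col14a1, which binds the surface of fibrils, by 0.41 (SE 0.11). Col14a1 was no longer past the threshold when all 16 libraries shared one estimate of the spread (limma adjusted p = 0.0523). The fibril-associated chain Col12a1 averaged 209 ± 48.6 in OVX livers and 181 ± 22.6 in Sham livers and did not pass (limma adjusted p = 0.495).

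Collagen XVIII, the multiplexin whose C-terminal end is released as endostatin, was the most abundant chain and went the other way. Col18a1 (chr10:77052178-77166548) had 9271, 9552, 10116 and 10303 in OVX livers, against 13976, 13635, 12716 and 12962 in Sham livers. Every OVX library was below every Sham library, with log2 fold change -0.44, SE 0.07, adjusted p = 0.00163 in limma. Its size depended on the scaling, at -0.44 to -0.20 under the other scalings, and the call held. Col13a1, a collagen that spans the cell membrane, had 42.02, 33.1, 14.1 and 15.7 in OVX livers, against 91.7, 93.2, 68.9 and 58.4 in Sham livers. It was lower in every OVX library too, by -1.65 (SE 0.37) on the log2 scale with limma adjusted p = 0.00881.

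Of the cross-linking lysyl oxidases, 4 of 5 rose. Loxl4 had 248, 313, 339 and 636 in OVX livers, against 137, 119, 87.7 and 94.9 in Sham livers, and Lox, the founding member of the family, had 112, 134, 149 and 220.3 in OVX livers, against 57.96, 45.3, 73.2 and 64.8 in Sham livers. Neither overlapped, OVX library 4 was the highest for both, and the changes were 1.73 (SE 0.28) and 1.31 (SE 0.23) with limma adjusted p = 0.00234 and 0.00322. Loxl1, better known for elastic fibres, rose by 1.58 (SE 0.24) and Loxl3 by 0.98 (SE 0.22). 11.6% of the exon length of Loxl3 overlaps Htra2 on the other strand, and the counting is not stated to use strand. Loxl2, a lysyl oxidase that acts on type IV collagen, had 625, 639, 642 and 619 in OVX livers, against 257, 491, 529 and 661 in Sham livers. The OVX libraries were nearly equal, whereas the Sham libraries were spread widely and reached above them, and the difference did not pass (limma adjusted p = 0.173).

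The hydroxylases split. Plod2, the lysyl hydroxylase of the telopeptides that form cross-links, had 294, 284, 245 and 85.6 in OVX livers, against 52.7, 38.6, 40.004 and 46.5 in Sham livers. It rose by 2.19 (SE 0.37) with limma adjusted p = 0.00289, although OVX library 4 was at less than the other OVX libraries. Plod1, which hydroxylates lysines of the helix, had 1227, 1145, 1145 and 1014 in OVX livers, against 1785, 1695, 1632 and 1503 in Sham livers. It was lower in every OVX library, by -0.55 (SE 0.08) on the log2 scale with limma adjusted p = 0.00158. Under the other scalings the change of Plod1 was -0.54 to -0.31, and the call held. Plod3 averaged 914 ± 81.2 in OVX livers and 762 ± 52.8 in Sham livers and was past the threshold at 0.0414, but its groups overlapped and it was not past it without any one of OVX libraries 1, 2 and 3 or Sham libraries 1, 2 and 3 (0.0702 to 0.112), nor with no trend in limma (0.0613). P4ha1, the main alpha subunit of prolyl 4-hydroxylase, had 403, 414, 409 and 396 in OVX livers, against 162, 241, 318 and 453 in Sham livers. The OVX values were nearly equal and the Sham values were spread over a wide range, and the difference of 0.56 (SE 0.27) did not pass (limma adjusted p = 0.126). Without Sham library 4 it was 0.80 with limma adjusted p = 0.013. P4ha2, the second alpha subunit, had 105, 122, 125 and 119 in OVX livers, against 182, 238, 217 and 294 in Sham livers, and it was lower in every OVX library by -0.96 (SE 0.15) with limma adjusted p = 0.00191.

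**Figure D2:**
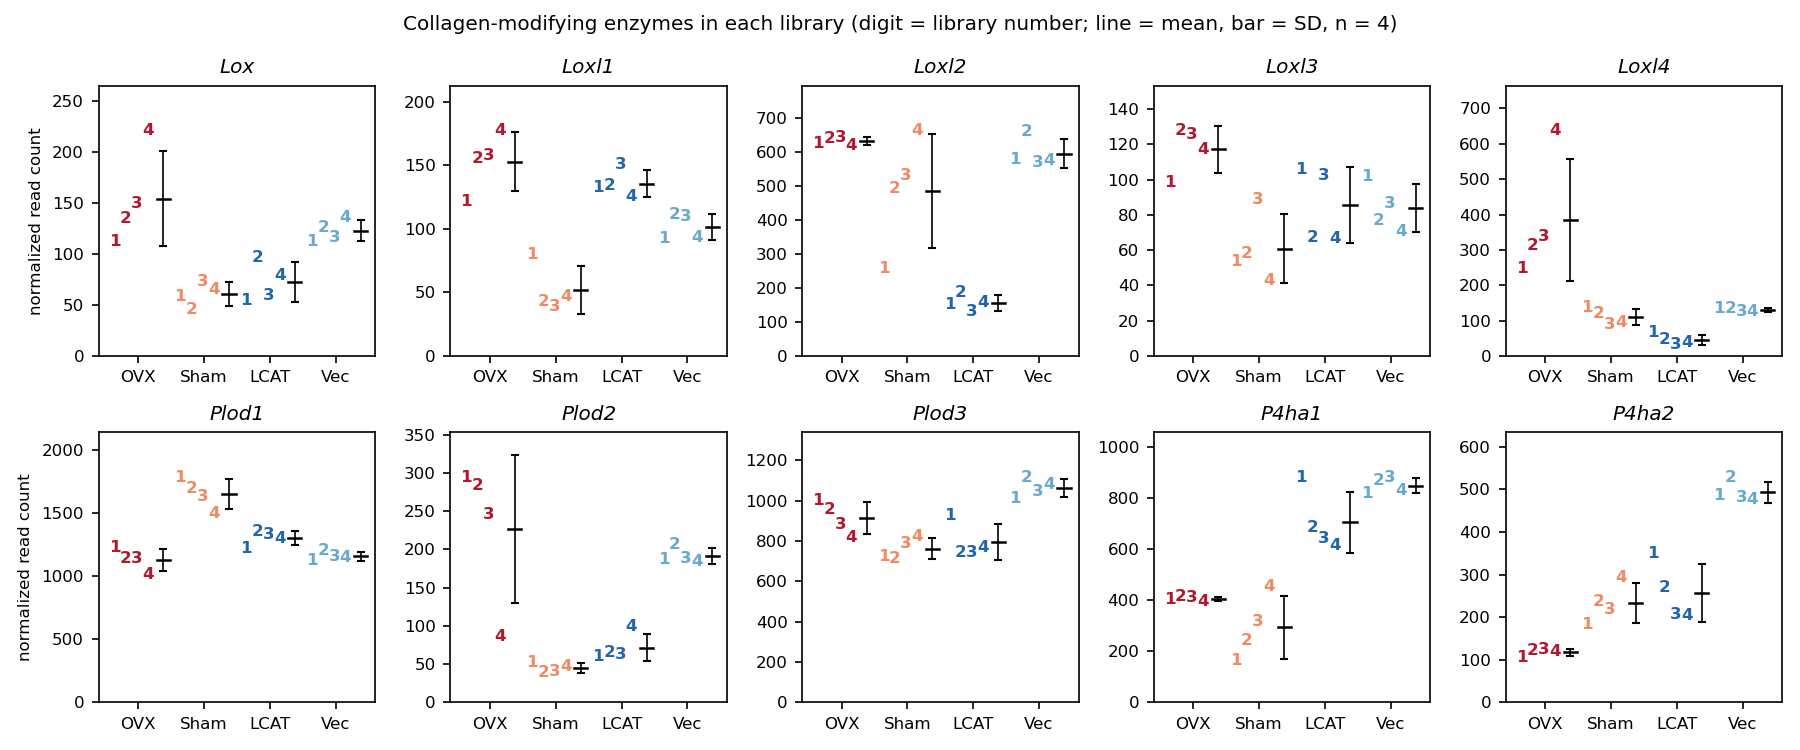
Normalized read counts of the 10 tested collagen-modifying enzymes in each library, with OVX, Sham, LCAT and Vec livers along the horizontal axis; each digit is a library, the line is the mean and the bar the SD of 4 libraries. Loxl4, Lox and Plod2 are higher in all OVX than in all Sham libraries and lower in all LCAT than in all Vec libraries, and P4ha2 is lower in both OVX and LCAT livers.

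LCAT overexpression was accompanied by lower levels of most type IV chains, of part of the fibrillar chains and of most of the tested enzymes. Of the 35 members tested, 6 rose and 17 fell in LCAT against Vec livers, where 20.2% of all genes tested rose and 20.5% fell (limma, adjusted p below 0.05). With all libraries scaled to equal totals, 4 members rose and 23 fell, where 13.7% and 30.3% of all genes tested did so. The median log2 fold change of all genes tested was -0.18 in LCAT against Vec livers and 0.24 in OVX against Sham livers, beside 0.00 for both with the authors' scaling. The median of the members was -0.40 with the authors' scaling and -0.59 with equal totals. 4 of 8 fibrillar chains, 4 of 5 basement membrane chains, 3 of 12 other chains and 6 of 10 enzymes fell. In 17 members every LCAT library was below every Vec library and in 6 every one was above, where 20.3% and 20.2% of all genes tested did so. With libraries 1 and 4 of each group alone, limma and edgeR each called 0 members, and 14 members had an unadjusted p below 0.05 with either tool. All 23 members called with 4 libraries kept their sign, which is no independent check, since libraries 1 and 4 were part of those calls. Of all 13101 genes tested there, limma called 1 higher and 2 lower, and edgeR 0. An unadjusted p below 0.05 was found for 16.53% of these genes in limma and 16.75% in edgeR.

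The type IV chains stood lowest as a class, with a median log2 fold change of -1.06. Col4a1 had 2449, 2759, 2538 and 2899 in LCAT livers, against 5590.1, 4655, 5806 and 5774 in Vec livers, and Col4a2 had 1246, 1519, 1331 and 1595 in LCAT livers, against 3364, 3740.5, 3226 and 3461 in Vec livers. The LCAT libraries of both genes lay together well under the Vec libraries. Col4a1 fell by 1.03 on the log2 scale (SE 0.10, limma adjusted p = 0.000145) and Col4a2 by 1.28 (SE 0.10, limma adjusted p = 4.85e-05). Col4a3 had 87.1, 116, 85.6 and 121 in LCAT livers, against 331, 306, 197 and 420.2 in Vec livers, a change of -1.58 (SE 0.23). Its neighbour Col4a4 averaged 31.9 ± 10.05 in LCAT livers and 65.96 ± 13.2 in Vec livers, a change of -1.06 (SE 0.25), with no overlap for either gene. Col4a5 averaged 131 ± 13.1 in LCAT livers and 159.9 ± 40.4 in Vec livers and did not pass (limma adjusted p = 0.256).

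The fibrillar chains did not move as one. Col1a1 had 2366, 1973, 1700.0 and 1551 in LCAT livers, against 2788, 2968, 2997 and 2857 in Vec livers. All LCAT libraries were lower, with log2 fold change -0.63, SE 0.13, adjusted p = 0.00577 in limma. Col1a2 had 2018, 1648, 1534 and 1432 in LCAT livers, against 1936, 2014, 2188 and 2104 in Vec livers, and LCAT library 1 lay among the Vec libraries. Its difference of -0.32 (SE 0.11) had a limma adjusted p of 0.0501, just over the threshold, and 0.00318 without LCAT library 1. It was -0.51 with limma adjusted p = 0.00326 under equal totals, and its adjusted p was 0.0444 with median of ratios scaling, 0.0482 among genes with a mean of at least 50 and 0.0262 in DESeq2. Col3a1 had 3133, 2938, 2901 and 2751 in LCAT livers, against 3103, 3297, 3372 and 3276 in Vec livers, a difference of -0.16 (SE 0.07) with a limma adjusted p of 0.121, and 0.0403 without LCAT library 1. It was -0.34 with limma adjusted p = 0.00445 under equal totals, and its adjusted p in DESeq2 was 0.0373. Col5a1 fell by 0.82 (SE 0.13), Col5a2 by 0.64 (SE 0.09) and Col11a2 by 1.22 (SE 0.30), with no overlap between the groups for any of them.

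Col27a1 and Col5a3 rose. Col27a1 had 390.5, 504, 555 and 737 in LCAT livers, against 164, 171, 146 and 176 in Vec livers, with log2 fold change 1.69, SE 0.18, adjusted p = 0.00025 in limma. Col5a3 had 445, 592, 681 and 791 in LCAT livers, against 264, 271, 275 and 298 in Vec livers, with log2 fold change 1.15, SE 0.17, adjusted p = 0.00114 in limma. For both genes LCAT library 1 was the lowest and LCAT library 4 the highest of the LCAT libraries, and all were above the Vec libraries.

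Among the other collagens, Col12a1, which is known to bind fibrils in tissue under load, had the largest fall of the 35 tested members. It had 82.4, 117, 54.3 and 69.5 in LCAT livers, against 352, 401, 355 and 302 in Vec livers, a change of -2.16 (SE 0.22) with limma adjusted p = 0.000197. Col15a1 fell by 0.73 (SE 0.08) and Col6a3 by 0.60 (SE 0.15). Col13a1 had 28.001, 73.7, 92.9 and 89.6 in LCAT livers, against 10.5, 4.88, 4.39 and 6.99 in Vec livers, the largest rise of the 35. Its limma log2 fold change was 3.16 (SE 0.43) with adjusted p = 0.000844, LCAT library 1 lay below the other LCAT libraries, and the Vec libraries held few reads. Col14a1 had 697, 1009, 1022 and 1330.4 in LCAT livers, against 543, 611, 506 and 631 in Vec livers and rose by 0.79 (SE 0.18). Col6a6 had 17.1, 37.4, 36.5 and 55.6 in LCAT livers, against 20.2, 19.5, 8.78 and 9.61 in Vec livers, and LCAT library 1 lay among the Vec libraries. Its limma adjusted p of 0.0417 was past the threshold, but 0.076 with equal totals, and 0.0522 to 0.106 without LCAT libraries 2, 3 or 4 or Vec libraries 2, 3 or 4 in turn.

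Col18a1 had 9001, 10243, 10068 and 11684 in LCAT livers, against 9931, 9803, 9627 and 9823 in Vec livers, and the Vec libraries lay inside the range of the LCAT libraries. Its difference of 0.06 (SE 0.09) did not pass (limma adjusted p = 0.623) and had the other sign with equal totals (-0.13). Col6a1, Col6a2, Col6a5, Col8a1 and Col16a1 did not pass either, with log2 fold changes of -0.23, -0.40, -0.35, -0.40 and -0.08. Without LCAT library 1, limma adjusted p was 0.0308 for Col6a2 and 0.0455 for Col8a1, and it was 0.0375 for Col8a1 without LCAT library 4. Under equal totals 3 of these members were past the threshold, Col6a1 at -0.41 with limma adjusted p = 0.0276, Col6a2 at -0.59 with limma adjusted p = 0.0115 and Col8a1 at -0.58 with limma adjusted p = 0.0155. In DESeq2 the adjusted p was 0.0471 for Col6a2 and 0.0487 for Col8a1.

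Loxl2 fell the most of the enzymes. It had 152, 186, 129 and 158 in LCAT livers, against 576, 659, 568 and 575 in Vec livers, a change of -1.93 (SE 0.12) with limma adjusted p = 1.74e-05. Loxl4 had 65.3, 47.3, 31.3 and 37.1 in LCAT livers, against 135, 134, 126 and 126 in Vec livers, a change of -1.56 (SE 0.22), and Lox fell by 0.78 (SE 0.19), at 54.4, 96.8, 59.5 and 78.8 in LCAT livers and 112, 126, 116 and 135 in Vec livers. None of the 3 overlapped. Loxl1 had 132, 134, 150.3 and 125 in LCAT livers, against 92.1, 111, 109.7 and 93.5 in Vec livers and rose by 0.41 (SE 0.12) with limma adjusted p = 0.024. That call did not hold with equal totals (0.168), with one spread for all 16 libraries (0.089), or without LCAT library 2 or 3 or Vec library 1 or 4 (0.0568 to 0.0729). Loxl3 averaged 85.4 ± 21.5 in LCAT livers and 84.01 ± 13.5 in Vec livers and did not pass (limma adjusted p = 0.994).

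Plod2 had 60.7, 64.9, 62.6 and 98.9 in LCAT livers, against 187, 206, 189 and 184 in Vec livers. LCAT library 4 was the highest of its group but below all Vec libraries, and the change was -1.43 (SE 0.17) with limma adjusted p = 0.000381. Plod3, which can add both the hydroxyl group and the sugars of collagen lysines, fell by 0.42 (SE 0.09), and 11.9% of its exon length overlaps Znhit1 and a microRNA gene. P4ha2 had 348, 269.6, 207 and 204 in LCAT livers, against 485, 528, 482 and 477 in Vec livers, a change of -0.97 (SE 0.17). P4ha1 had 880.5, 685, 639.7 and 613 in LCAT livers, against 818, 867, 879 and 829 in Vec livers, with LCAT library 1 above all Vec libraries and the other LCAT libraries below them. Its difference of -0.28 (SE 0.12) had a limma adjusted p of 0.0898, and 0.00331 without LCAT library 1, and it was -0.47 with limma adjusted p = 0.00604 under equal totals. Plod1 was at 1304 ± 58.8 in LCAT livers and 1160.0 ± 34.9 in Vec livers, and its difference of 0.17 (SE 0.07) had a limma adjusted p of 0.0899, 0.0341 without LCAT library 1, 0.0345 in DESeq2, and the other sign with equal totals (-0.02).

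**Figure D3:**
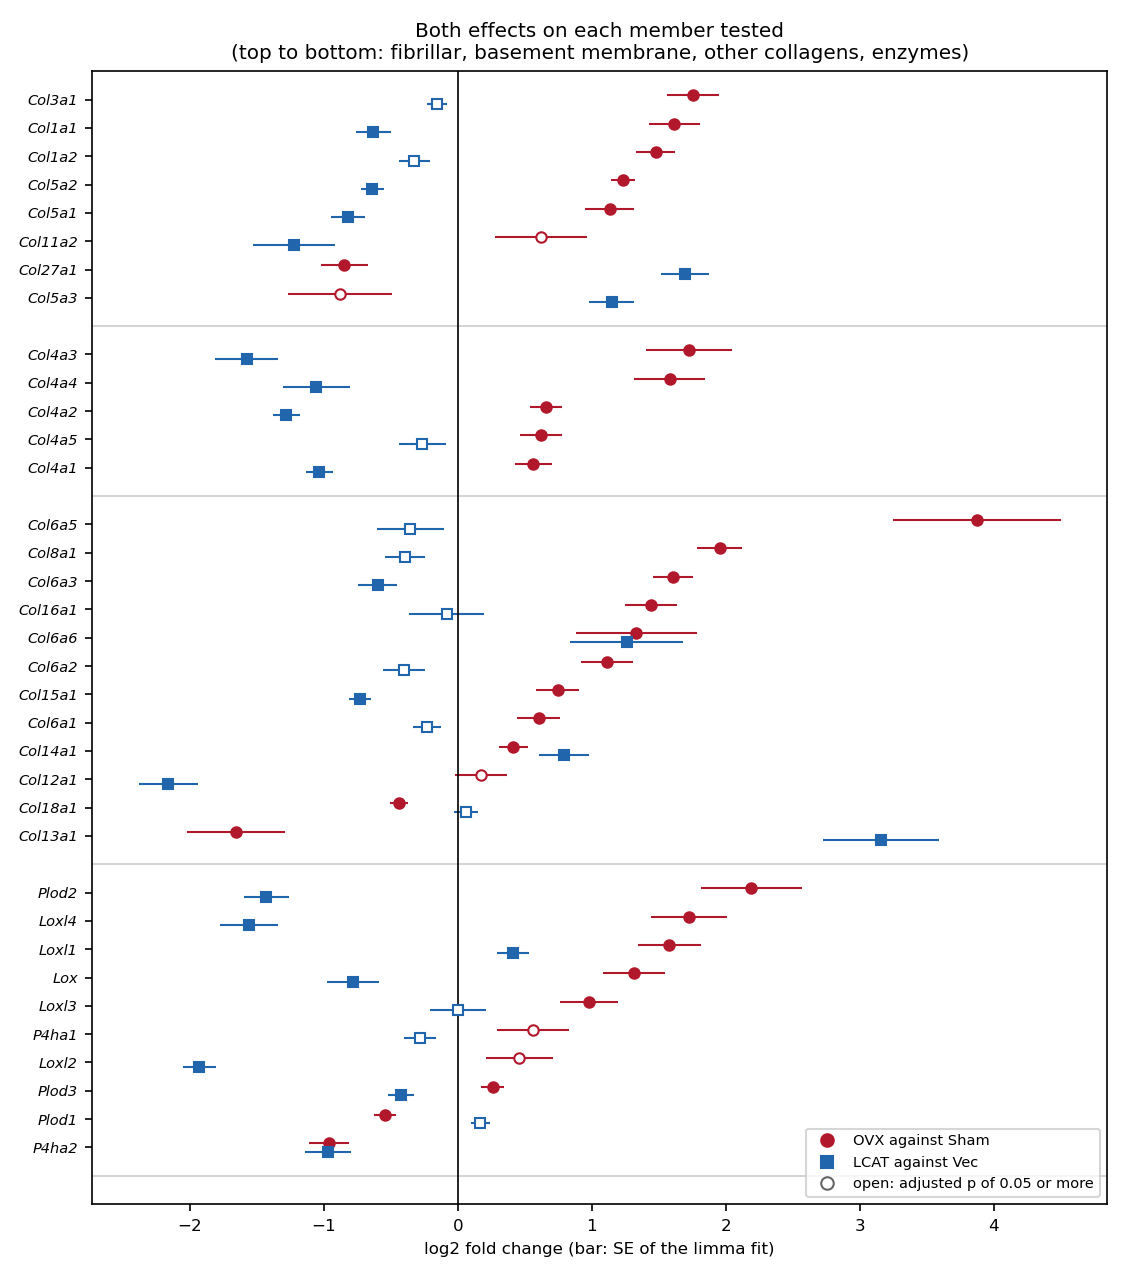
Log2 fold change in limma (horizontal axis) of each of the 35 tested members, grouped from top to bottom as fibrillar, basement membrane and other collagens and enzymes; circles are OVX against Sham, squares LCAT against Vec, bars the SE, and open symbols an adjusted p of 0.05 or more. Most circles lie right of 0 and most squares left of it; Col13a1 and Col27a1 have both filled symbols on the opposite sides, and P4ha2 has both on the left.

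The difference between both effects was tested in one limma fit over the 16 libraries, since the experiments share no libraries. 27 members had a higher log2 fold change in OVX against Sham than in LCAT against Vec livers, and 5 a lower one, at an adjusted p below 0.05. Over all genes tested, 22.9% and 21.9% did so. The median difference was 1.60 for the members and 0.04 for all genes. With equal totals these medians were 2.02 and 0.46. With libraries 1 and 4 alone, limma and edgeR each called 0 members, with 24 at an unadjusted p below 0.05, and the median was 1.81 in limma. All 32 kept their sign, which again is no independent check, since these libraries were part of the calls. Of all 13135 genes tested there, limma called 44 higher and 53 lower, and edgeR 38 and 51. An unadjusted p below 0.05 was found for 18.94% of these genes in limma and 19.04% in edgeR.

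Among the fibrillar chains the difference was 2.25 (SE 0.24) for Col1a1, 1.80 (SE 0.19) for Col1a2 and 1.91 (SE 0.21) for Col3a1, so the type I and III chains differed between the experiments although Col1a2 and Col3a1 did not pass in LCAT livers. It was 1.60 (SE 0.17) for Col4a1, 1.94 (SE 0.16) for Col4a2 and 3.30 (SE 0.42) for Col4a3. Among the enzymes it was 3.62 (SE 0.43) for Plod2, 3.28 (SE 0.37) for Loxl4 and 2.39 (SE 0.29) for Loxl2. All of these kept an adjusted p below 0.05 under every other setting that used at least 3 libraries a group. The members with a lower effect in OVX than in LCAT livers were Col13a1 at -4.81 (SE 0.59), Col27a1 at -2.54 (SE 0.27), Col5a3 at -2.02 (SE 0.45), Plod1 at -0.71 (SE 0.11) and Col18a1 at -0.50 (SE 0.11). Col18a1 was not past the threshold with equal totals (limma adjusted p = 0.664). Col14a1, Col6a6 and P4ha2 did not pass, with differences of -0.38, 0.07 and 0.01. Without LCAT library 1 that of Col14a1 was -0.55 with limma adjusted p = 0.0178, and with equal totals its sign turned (0.05). P4ha1 passed at 0.0366 but not in edgeR (0.0687) nor without any one of 12 of the libraries (0.0511 to 0.0711 in limma).

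13 members rose in OVX livers and fell in LCAT livers. These were Col1a1, Col5a1, Col5a2, Col4a1, Col4a2, Col4a3, Col4a4, Col6a3, Col15a1, Lox, Loxl4, Plod2 and Plod3. They were 13 of the 25 members higher in OVX livers and 13 of the 17 lower in LCAT livers. Over the 12784 genes tested in both experiments, 659 did the same, which was 27.2% of the genes higher in OVX livers and 25.1% of those lower in LCAT livers. 2 members, Col13a1 and Col27a1, fell in OVX livers and rose in LCAT livers, 3 rose in both (Col14a1, Col6a6 and Loxl1) and 1, P4ha2, fell in both. Of the 12784 genes, 867 (6.78%) fell in OVX livers and rose in LCAT livers, 296 (2.32%) rose in both and 441 (3.45%) fell in both. These 3 counts of members are too small to set apart from those shares.

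Per kb of exon length, a few chains made up most of the collagen signal. Col18a1 was at 1397 ± 68.5 normalized reads per kb in OVX livers, 1897 ± 83.2 in Sham livers, 1459.7 ± 157 in LCAT livers and 1395 ± 17.9 in Vec livers (SD, n = 4 each). Col4a1 followed at 601 ± 92.4 in OVX, 406 ± 55.6 in Sham, 357 ± 27.5 in LCAT and 731 ± 72.7 in Vec livers. Col4a2 was at 351 ± 56.5 in OVX, 222 ± 20.4 in Sham, 215 ± 24.4 in LCAT and 521 ± 32.9 in Vec livers. By group means Col18a1 stood above every other chain in every group and Col4a1 came next. In LCAT library 1, however, Col1a1 was above Col4a1, with a ratio of Col4a1 to Col1a1 of 0.91. The ranks below Col18a1 depend on the exon lengths, which join all annotated exons of a gene. Without division by length, Col3a1 averaged 2931 and Col4a1 2661 in LCAT livers. Col1a1 was at 372 ± 116 in OVX, 117 ± 6.97 in Sham, 289 ± 54.5 in LCAT and 442 ± 14.8 in Vec livers, and Col3a1 at 357 ± 114 in OVX, 102 ± 5.45 in Sham, 299 ± 16.04 in LCAT and 332 ± 11.6 in Vec livers. Col4a2, Col1a1 and Col3a1 lay within their spread of each other in OVX livers, Col1a1 and Col3a1 did in LCAT livers, and in Sham and Vec livers Col4a2 was above both by more than the spread.

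The mix of classes differed between the groups. Fibrillar chains made up 23.2 to 31.8% of the summed collagen level per kb in OVX libraries, against 13.1 to 13.96% in Sham libraries, and 23.9 to 31.4% in LCAT libraries, against 25.1 to 26.9% in Vec libraries. Basement membrane chains made up 24.5 to 25.5% in OVX and 18.3 to 21.6% in Sham libraries, and 17.1 to 18.3% in LCAT and 29.4 to 31.6% in Vec libraries. The fibrillar share therefore did not overlap between OVX and Sham livers but did between LCAT and Vec livers, and the basement membrane share overlapped in neither pair. Col18a1 alone made up 30.2 to 38.7% in OVX and 56.7 to 58.1% in Sham libraries, and 40.2 to 45.1% in LCAT and 32.1 to 33.5% in Vec libraries. Because shares sum to a fixed whole, a change in one class moves the others. The size of each share also depends on the exon lengths used.

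**Figure D4:**
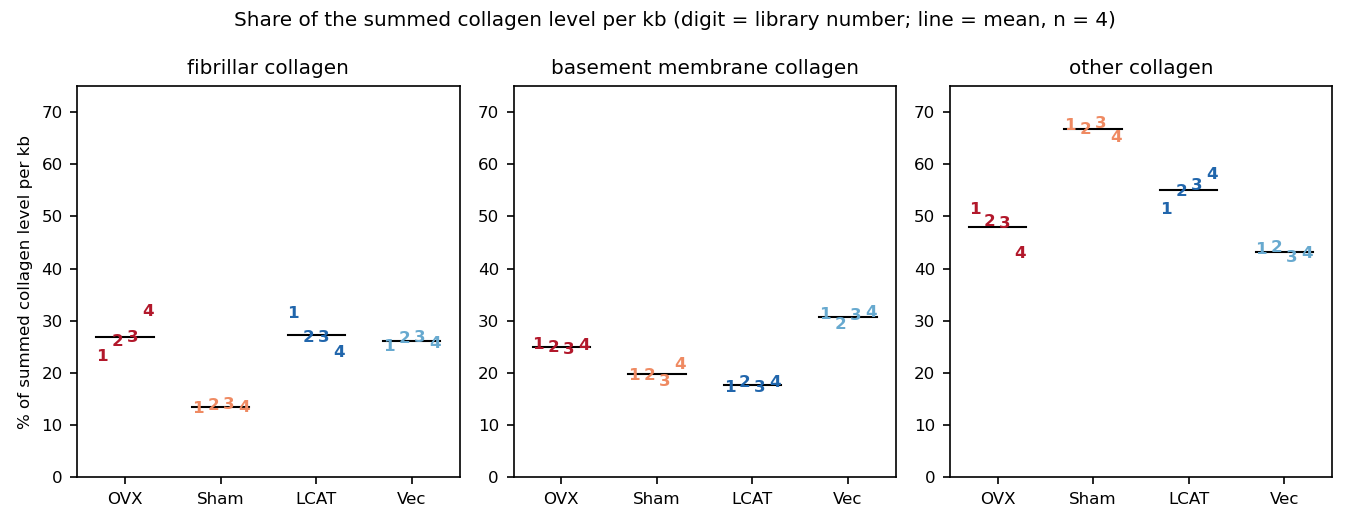
Share of each class in the summed collagen level per kb of exon (vertical axis, %), with OVX, Sham, LCAT and Vec livers along the horizontal axis; each digit is a library and the line the mean of 4 libraries. The fibrillar share is higher in all OVX than in all Sham libraries, and the basement membrane share is lower in all LCAT than in all Vec libraries.

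Ratios between partner chains were taken from levels per kb of exon length. The exon lengths, such as 6563 bases for Col1a1 and 12426 for Col1a2, shift the level of a log2 ratio but not its difference between groups. The level of a ratio therefore does not give the proportion in which chains are made. Ratios were compared by 10 exact two-sided permutation tests over the libraries, in which 4 against 4 cannot go below p = 0.0286. The log2 ratio of Col1a1 to Col1a2 was 1.15 ± 0.12 in OVX and 1.01 ± 0.12 in Sham livers (exact p = 0.171), and 1.11 ± 0.07 in LCAT and 1.42 ± 0.06 in Vec livers (exact p = 0.0286). That of Col4a1 to Col1a1 was 0.73 ± 0.22 in OVX and 1.78 ± 0.19 in Sham livers (exact p = 0.0286). Differences of the log2 ratios in LCAT against Vec livers were -0.48 for Col1a1 to Col3a1, 0.25 for Col4a1 to Col4a2 and -0.40 for Col4a1 to Col1a1. In OVX against Sham livers the ratio of Col6a1 to Col6a2 differed by -0.52. None passed after adjustment over the 10 tests, where the smallest adjusted p was 0.0571.

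Several members lie beside each other in the genome. Col4a1 and Col4a2 start 21 bases apart on chromosome 8 with overlapping first exons, and Col4a3 and Col4a4 start 72 bases apart on chromosome 1. Both pairs are transcribed away from each other, and within each pair both genes rose in OVX livers and fell in LCAT livers. Col3a1 and Col5a2 lie 24.6 kb apart on chromosome 1; both rose in OVX livers, and in LCAT livers Col5a2 fell while Col3a1 did not pass. Col6a1 and Col6a2 lie 85.2 kb apart on chromosome 10, and both rose in OVX livers and did not pass in LCAT livers. Col6a5 and Col6a6 lie 27.9 kb apart on chromosome 9. Both rose in OVX livers, and in LCAT livers Col6a6 was past the threshold at 1.26 while Col6a5 was at -0.35 and did not pass. Col4a5 and Col4a6 start 1309 bases apart on chromosome X, but Col4a6 was below the limit for testing, at 7.64, 8.78, 1.76 and 5.90 in OVX and 0, 0, 3.40 and 3.65 in Sham livers.

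The other genes of collagen biosynthesis followed only in part. Over all genes tested, 19.0% rose and 20.6% fell in OVX livers, and 20.2% rose and 20.5% fell in LCAT livers. Of 12 tested genes for folding and secretion of collagen, 6 rose and 1 fell in OVX livers, where the highest ranked were Fkbp10 (1.55), a chaperone that acts on lysyl hydroxylation, Serpinh1 (1.06), the collagen chaperone HSP47, and Crtap (0.49), a part of the prolyl 3-hydroxylase complex. In LCAT livers 1 rose (P3h3, 0.50) and 1 fell (Fkbp10, -0.57). Genes for propeptide removal and fibril regulation rose in 6 and fell in 2 of 13 in OVX livers, led by the small proteoglycans Lum (1.21) and Bgn (0.77) and the procollagen protease Adamts2 (1.15). In LCAT livers 6 of 12 rose and 3 fell, with Lum at 1.25, Tnxb at 1.16 and Postn, a matrix protein of scars, at -1.04. Single values given for genes of these and the following lists are limma log2 fold changes, all past the threshold.

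Genes for collagen breakdown and its inhibitors rose in 4 and fell in 1 of 11 in OVX livers, with the gelatinase Mmp2 at 1.65, the inhibitor Timp1 at 2.68 and the macrophage protease Mmp12 at -1.32 on the log2 scale. In LCAT livers 3 of 9 rose and 3 fell, with Timp2 at 0.99, Mmp2 at 0.93 and the membrane protease Mmp14 at -0.67. Of 8 collagen receptors, 5 rose and 0 fell in OVX livers, and 0 rose and 3 fell in LCAT livers. Ddr1, a receptor kinase for collagen, was at 1.01 in OVX against Sham and -1.10 in LCAT against Vec livers on the log2 scale. Of 14 genes of TGF beta and PDGF signalling, which drive stellate cells, 4 rose and 2 fell in OVX livers. These counts are too small to set apart from the 19.0% and 20.6% of all genes tested that did so. Pdgfrb was at 0.89, Pdgfb at 1.23 and Tgfb3 at 0.998. In LCAT livers 1 rose and 5 fell, where 20.2% and 20.5% of all genes tested did so, with Pdgfb at -0.70 and Pdgfd at 1.01. Of 13 other basement membrane genes, 2 rose and 0 fell in OVX livers (Lama2, 0.94, and Lama4, 0.83), and 0 rose and 8 fell in LCAT livers, including the nidogens Nid1 (-1.53) and Nid2 (-1.35) and the laminin chain Lama5 (-2.09).

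In OVX livers, most activated myofibroblast and mesothelial markers rose, as most members did, whereas stellate cell markers were split. In LCAT livers, where more members fell than rose, none of these lists had more markers falling than rising. Of 11 tested markers of activated myofibroblasts, 9 rose and 1 fell in OVX livers, led by Lum (1.21), Thy1 (1.92) and Acta2 (1.86), the smooth muscle actin of contractile cells. Their summed normalized count was 4526 to 4796 in OVX and 3142 to 3864 in Sham livers. In LCAT livers 3 rose and 3 fell, with sums of 3962 to 4299 in LCAT and 2460.3 to 2759 in Vec livers. Dcn, a small proteoglycan that rose in LCAT livers (1.47) and fell in OVX livers (-0.50), was the most abundant of them. Without Dcn the sums were 2923 to 3403 in OVX and 1135 to 1231 in Sham livers, and 1751 to 2942 in LCAT and 1856 to 2146 in Vec livers, which overlapped. 5 of these genes also stand in another list used here. Over all genes tested, 19.0% rose and 20.6% fell in OVX livers, and 20.2% rose and 20.5% fell in LCAT livers. Of 12 stellate cell markers, 3 rose and 4 fell in OVX livers, including Pdgfrb (0.89), Reln (-0.78) and Vipr1 (-1.23), with a median of -0.17 that was 0.07 with equal totals. Their sums were 4003 to 4209 in OVX and 5293 to 5620.1 in Sham livers. In LCAT livers 7 of 11 rose and 0 fell, including Vipr1 (2.67), Angptl6 (1.92) and Hand2 (1.84), with sums of 2688 to 7267 in LCAT and 3000.4 to 3788 in Vec livers. The 6 tested mesothelial markers, genes of the cells that cover the liver, all rose in OVX livers, including Msln (4.83), Upk3b (3.12) and Lrrn4 (2.26), and 4 rose and 1 fell in LCAT livers, with sums of 10503 to 11942 in OVX, 7869 to 9805 in Sham, 5069.9 to 12600.5 in LCAT and 15190.1 to 16033 in Vec livers. Nearly all of these sums was Krt8, a keratin that is also made by other epithelial cells. Without it they were 319 to 388 in OVX, 31.9 to 65.5 in Sham, 311 to 372 in LCAT and 129.5 to 215 in Vec livers, so the LCAT libraries were then all above the Vec libraries.

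Hepatocyte markers fell in 9 and rose in 0 of 12 in OVX livers, including Hpd (-1.99), Ass1 (-1.58) and Cps1 (-0.97), and 8 rose and 0 fell in LCAT livers, including Hpd (4.08), Ass1 (0.81) and Cyp3a11 (1.78). Their sums were 2054099 to 2156708 in OVX and 2551572 to 3653508 in Sham livers, and 2120572 to 2522982 in LCAT and 2148344 to 2329245 in Vec livers. Alb made up most of these sums. Without it they were 308268 to 343662 in OVX and 458052 to 599550 in Sham livers. In LCAT livers they were then 448618 to 501214, above all Vec libraries at 326145 to 349828. Of 12 endothelial markers, 0 rose and 6 fell in OVX livers (sums of 5626 to 5752 in OVX and 7328 to 8091 in Sham livers), and 6 rose and 2 fell in LCAT livers (4115 to 6944 in LCAT and 4092 to 4956 in Vec livers). The sinusoidal markers Stab2 (-0.75), Lyve1 (-1.10) and Oit3 (-0.60) fell in OVX livers, and in LCAT livers Oit3 was at 3.11 while the junction genes Cdh5 and Pecam1 were at -1.20 and -0.73. Cholangiocyte markers rose in 3 and fell in 1 of 8 in OVX livers, including Spp1 (1.96) and Krt7 (1.90), and rose in 6 and fell in 2 of 9 in LCAT livers, including Krt19 (3.65), Krt7 (2.64) and Spp1 (-1.50). Their sums, which Spp1 dominates, were 39016 to 106367 in OVX, 17730.4 to 25622 in Sham, 25171 to 32454 in LCAT and 71090.1 to 88428 in Vec livers. Without Spp1 they were 3457 to 3910 in OVX livers, inside the 3079 to 4331 of Sham livers. In LCAT livers they were then 3290 to 3661, narrowly below the 3677 to 3782 of Vec livers. Of 12 Kupffer cell and macrophage markers, 2 rose and 4 fell in OVX livers, including Mpeg1 (0.98), Itgax (1.37) and Gpnmb (-1.85), and 9 rose and 3 fell in LCAT livers, including Clec4f (3.69), Cd5l (2.96) and Csf1r (1.10). Their sums were 13519 to 16335 in OVX, 10511 to 10914 in Sham, 7756 to 9321 in LCAT and 10737 to 12456 in Vec livers. Mpeg1, the most abundant of them, was at -1.14 in LCAT against Vec livers. Without Mpeg1 the sums were 3503 to 5288 in OVX, 5124 to 5678 in Sham, 2209 to 4157 in LCAT and 1219 to 1508 in Vec livers, overlapping between OVX and Sham livers and higher in all LCAT than in all Vec libraries. Beside the counts of these lists, 19.0% of all genes tested rose and 20.6% fell in OVX livers. In LCAT livers 20.2% rose and 20.5% fell, and no list was tested against these shares. No marker was at 0 in all 8 libraries of a comparison. The part of any of these cell types in the collagen results was not tested.

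15 members were below a mean of 10 in both comparisons and were not tested. They were Col10a1, Col11a1, Col17a1, Col20a1, Col22a1, Col23a1, Col24a1, Col25a1, Col26a1, Col28a1, Col4a6, Col7a1, Col8a2, Col9a3 and P4ha3. Col20a1, a fibril-associated chain, had 4.67, 0, 2.09 and 0 in LCAT livers, against 13.2, 19.5, 9.87 and 13.98 in Vec livers, and Col10a1, the network chain of growth plate cartilage, had 0, 9.90, 14.6 and 16.998 in LCAT livers, against 0, 0, 3.29 and 0 in Vec livers. Col7a1, the anchoring fibril chain of skin, held no read in any OVX or Sham library, and had 15.6, 11.01, 8.35 and 0 in LCAT livers, against 2.63, 0, 0 and 2.62 in Vec livers. Col8a2, the partner of Col8a1, had 0, 11.5, 7.91 and 8.85 in OVX livers, against 0, 1.68, 0 and 0 in Sham livers. Levels of the remaining members among these 15 stayed at or below 10.8 normalized reads in every library.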

How the data were processed

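16 RNA libraries from mouse liver were sequenced, from 200 ng each, after poly(A) selection per the labels. The authors deposited read counts per gene divided by one size factor per library, a signal that is not per length. The submitters' processing notes name FastQC, HISAT2, SAMtools, StringTie and build mm10, with no version or role, and the sources used here do not say whether counting used strand, which tool counted or how reads shared between similar genes were treated. Dividing by the smallest step of each library gave whole reads for all values within 0.01 read. These reads served for library totals and for the edgeR and DESeq2 alternatives. Depth limits precision most for members of few reads.

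Members were matched by symbol, all 50 of them to GENCODE M21, which gave coordinates and exon lengths on mm10. The main test was limma 3.58.1 (trend and robust, R 4.3.3) on log2 of the deposited value plus 1, where the mean of the 8 libraries reached 10, fitted on the whole table with Benjamini-Hochberg adjustment over all genes and a threshold of 0.05. Fold changes on this scale understate those of low genes. The difference between the effects was the contrast of both in a fit of 16 libraries. Class and list results are counts and medians beside all genes. Chain ratios were of levels per kb of exon length and used exact permutation tests. The fits were tested on simulated data. Alternatives were the pseudocount (0.5 or 5), no filter or a mean of at least 50, TMM, median of ratios and equal totals scaling, all 16 libraries, a replicate block, no trend, edgeR 4.0.16, DESeq2 1.42.0, libraries 1 and 4 alone, and leaving out each library. Only edgeR on libraries 1 and 4 alone was added after the results were seen. The members and the gene lists were chosen with earlier results of these data known. The text names the members, and from each list up to 3 genes with the smallest adjusted p past the threshold; some list genes are not reported here. Dcn, Krt8 and Alb were named after their values were seen, as the most abundant genes of their lists.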

Additional observations from a re-analysis of the deposited data

Results flagged for a closer look

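In 7 of 141 groups of 4 libraries, those of members with a group mean of at least 10, 1 library lay so far from the others that its gap exceeded Dixon's 95% critical value; chance alone flags about 1 group in 20. Plod3 was highest in LCAT library 1, at 929, with the other LCAT libraries at 741 to 768. Plod2 was highest in LCAT library 4, at 98.9, with the others at 60.7 to 64.9. Col4a1 was lowest in Sham library 3, at 2418, with the others at 3156 to 3302, and Col15a1 was lowest in Sham library 1, at 377, with the others at 422 to 431. Vec library 2 was the highest for both Loxl2, at 659 with the others at 568 to 576, and P4ha2, at 528 with the others at 477 to 485. Col4a4 was highest in Vec library 4, at 85.6, with the others at 57.05 to 61.4. The comparison of each of these members was past the threshold in limma with all libraries and without the library in question.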

How the results depend on the processing

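The authors' size factors equalled median of ratios factors over all 16 libraries. For the difference between the effects, median of ratios scaling therefore repeats the main fit and is no separate setting. The counts of members past the threshold stayed within 1.5 times their value under every other setting except libraries 1 and 4 alone, which leaves 2 against 2. There limma, and edgeR added after the results were seen, each called 0 members higher and 0 lower in all 3 comparisons, with 21 members in OVX against Sham, 14 in LCAT against Vec and 24 for the difference at an unadjusted p below 0.05 by either tool. Among all genes tested, limma had 12.93%, 16.53% and 18.94% at an unadjusted p below 0.05 in these comparisons, in the same order. Leaving out 1 library gave 22 to 25 higher and 5 to 6 lower in OVX against Sham livers, 4 to 7 higher and 17 to 22 lower in LCAT against Vec livers, and 26 to 27 higher and 5 to 6 lower for the difference. Equal totals gave 25 higher and 5 lower, 4 higher and 23 lower, and 27 higher and 4 lower for the same comparisons. This scaling moved the whole table. Of all genes tested, it gave 4441 higher and 1209 lower of 13059 in OVX against Sham. In LCAT against Vec it gave 1795 and 3963 of 13095, and for the difference 5458 and 1482 of 13166. With the authors' scaling these were 2484 and 2686, 2651 and 2681, and 3017 and 2880. Same-numbered libraries did not deviate together (correlations of -0.059 to 0.121), so the values gave no sign of pairing by number. With 4 libraries a group this cannot exclude a pairing, and no label states one. With a replicate block the counts were 21 higher and 5 lower in OVX against Sham, 5 higher and 17 lower in LCAT against Vec, and 27 higher and 5 lower for the difference. Of the same numbers of genes tested, the block gave 2052 higher and 2287 lower, 2231 and 2327, and 2903 and 2691 in these comparisons. Under the block, Plod3 (0.107), Col14a1 (0.0675), Col6a1 (0.0678) and Col6a6 (0.0757) were not past the threshold in OVX livers and Col6a6 (0.0935) was not in LCAT livers. Of the ratios, that of Col6a1 to Col6a2 in LCAT minus Vec livers changed sign without LCAT replicate 4, with values of -0.0075 to 0.318 over the left-out libraries beside 0.18 with all; the cause was not tested. Members of few reads, such as Col6a5 in Sham and Col13a1 in Vec livers, are limited by depth.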
